A study of Mus musculus with 19 samples.

Results

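Mouse skin tumours that started from Ivl-expressing cells were compared with tumours that started from K14-expressing cells. The comparison used 10 of the 19 libraries of the series, 6 from Ivl:BRAFV600E tumours and 4 from K14:BRAFV600E tumours, taken by their sample titles. The other 9 libraries, 5 from K5:BRAFV600E tumours and 4 from normal skin, entered no test and are given as reference levels. Each library is bulk poly(A) RNA of a fresh frozen tumour that the labels call squamous cell carcinoma. All donors were female, of a labelled age of 7 to 20 weeks, and a Cre that responds to tamoxifen turned on BRAFV600E. Cre was driven by the Ivl promoter in one group and by the Krt14 promoter in the other, and the oncogene is shared by both. In the study's methods the inducer was tamoxifen for Ivl mice and 4-hydroxytamoxifen for K14 mice, both painted on the shaved back. The study describes Ivl tumours as later and as growing on back, paws, ears and lips, and K14 tumours as growing on the back. The labels give neither body site nor latency for a library, so origin, site, latency and inducer cannot be told apart. Nothing in the labels says whether the libraries of a group came from separate mice, so a p-value measures the spread between these libraries.

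Keratinocytes are renewed from the basal layer of the epidermis, where cells express Krt5 and Krt14. Cells that commit to differentiation switch on Ivl, which encodes involucrin, a scaffold protein of the cornified envelope. BRAFV600E keeps the MAPK kinase cascade active without an upstream signal. SOX2 is a transcription factor of embryonic and stem cells that also acts in stratified epithelia such as the oesophagus, and it is scarce in the epidermis between hair follicles. Keratin 13 and keratin 4 form the filament pair of the upper layers of lining mucosae such as the mouth and oesophagus.

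The 10 tumours held between 46469682 and 68006115 counts per library. Values are given as CPM, edgeR's unit of counts relative to library size after scaling for composition. The table had been adjusted for a sequencing batch by the authors, and the labels do not say which library was in which batch. The study's supplement reports batches of 4 and 15 libraries. Ivl tumours 1, 2 and 3 and K5 tumour 1 stood apart. For 96.6% of 13954 genes, the average of these 4 libraries differed by less than 0.1 on the log2 scale from that of the remaining 15, tumours and skin together. The spread between libraries moved with this set, since the median SD of log2 CPM over 14843 genes was 0.487 in Ivl tumours 1 to 3, 0.161 in Ivl tumours 4 to 6 and 0.211 in K14 tumours. The comparison was therefore made over all 6 Ivl tumours and over Ivl tumours 4 to 6 alone. Of the variance of the 10 tumours, 54.6% lay on a first principal component along which the origins overlapped.

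The genes behind the mouse lines were looked at first. Krt14 held 34600, 41800 and 37200 CPM in Ivl tumours 4, 5 and 6 and 30400 to 46900 CPM in K14 tumours. Ivl itself held 418, 521 and 355 CPM in Ivl tumours 4 to 6 and 352, 334, 556 and 782 CPM in the K14 tumours. Both genes overlapped between the groups, with log2 fold changes (Ivl over K14) of -0.02 ± 0.24 (SE) and -0.24 ± 0.32 and adjusted p-values of 0.981 and 0.789 in edgeR's quasi-likelihood test. The estimates over all 6 Ivl tumours were -0.47 and -0.78 (adjusted p = 0.847 and 0.731). Normal skin held at most 3690 CPM of Krt14 and 14.4 CPM of Ivl. Ivl tumour 1 was low for the keratinocyte genes, with 5290 CPM of Krt14 and 2630 CPM of Krt5 against at least 22000 and 6110 CPM in the other Ivl tumours. Braf held 38.5 to 40.0 CPM in Ivl tumours 4 to 6 and 37.3 to 42.4 CPM in K14 tumours. These gene-level counts do not separate the mutant allele from the normal one, and Braf exons overlap those of Ndufb2 on the opposite strand.

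Over all 6 Ivl and 4 K14 tumours, edgeR with Benjamini-Hochberg adjustment called 0 of 27288 genes (0%) at an adjusted p under 0.05, and the smallest adjusted p was 0.0914. An unadjusted p under 0.05 was reached by 1831 genes (6.71%), higher in Ivl tumours for 4.06% and lower for 2.65% of all genes. The values of the groups did not overlap for 527 genes (1.93%), 241 higher (0.883%) and 286 lower (1.05%), and 62.3% of all genes had a fold change above 0. DESeq2 on the same libraries called 231 genes (0.847%), 111 higher (0.407%) and 120 lower (0.44%).

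The genes nearest to the threshold are given as values. Gstm1, a glutathione transferase, held 64.0, 53.2, 61.6, 76.2, 41.7 and 91.3 CPM in Ivl tumours 1 to 6 and 21.4, 15.4, 9.90 and 11.4 CPM in the K14 tumours. Gsta3, another transferase of the family, held 6.52, 6.98, 9.64, 19.5, 11.4 and 20.7 CPM against 0.631, 1.72, 0.396 and 0.510 CPM. In both genes every Ivl tumour lay above every K14 tumour, and the log2 fold changes were 2.15 ± 0.27 and 3.93 ± 0.56 (adjusted p = 0.0914 for both, edgeR). Slc9a3, a sodium-proton exchanger, had a log2 fold change of 2.80 ± 0.41 at the same adjusted p. Rapgef5 and Epha7, a guanine nucleotide exchange factor and an ephrin receptor, had 1.25 and 2.38 (adjusted p = 0.179 for both). On the low side Sorcs2 (-1.16), C1qtnf3 (-1.85), Syngr2 (-0.75), Bmp1 (-1.01) and Chdh (-0.75) shared the adjusted p of 0.0914. Sorcs2, a sorting receptor, held 22.8 to 42.2 CPM in Ivl tumours and 69.1 to 78.2 CPM in K14 tumours. The ranges of all 10 genes were apart over the 10 libraries.

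With Ivl tumours 4 to 6 alone, 140 of 24627 genes (0.568%) passed an adjusted p of 0.05 in edgeR, 40 higher (0.162%) and 100 lower (0.406%) in Ivl tumours. DESeq2 called 1425 (5.79%), 686 higher (2.79%) and 739 lower (3%). An unadjusted p under 0.05 in edgeR was reached by 14.7%, higher for 7.29% and lower for 7.44%, and 16.1% of all genes did not overlap. The change exceeded 1 on the log2 scale for 26 of the 40 and 77 of the 100. Over all 6 Ivl tumours, a comparison that contains all 7 libraries used to call these genes, 139 of the 140 had the same direction and 112 an unadjusted p under 0.05. Agreement is thus in part built in. In Ivl tumours 1 to 3, compared with the same K14 tumours, 134 had the same direction. These K14 libraries also served to call the genes, so this agreement is in part built in as well. The exception over all 6 was Gm42819, an annotated transcript of unclassified type, which was named after its values were seen. The ranges stayed apart with all 6 Ivl tumours for 59 of the 140. The call count rests on few libraries, since it was 4 without Ivl tumour 4, 5 without Ivl tumour 5, 10 without K14 tumour 4 and 54 to 83 without any of the others. In all 7 of these fits, 4 genes passed, namely Sept4, Pdgfb, Hoxa9 and Crabp1. Another 43 of the 140 passed in none of the 7. Among genes described below, Sox2, Krt13, Gsta3, Slc7a11, Col1a1, Pdgfrb and Hoxb8 passed in 1 of the 7 each. Birc5, Mmp14 and Hoxc11 passed in none.

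**Figure D1:**
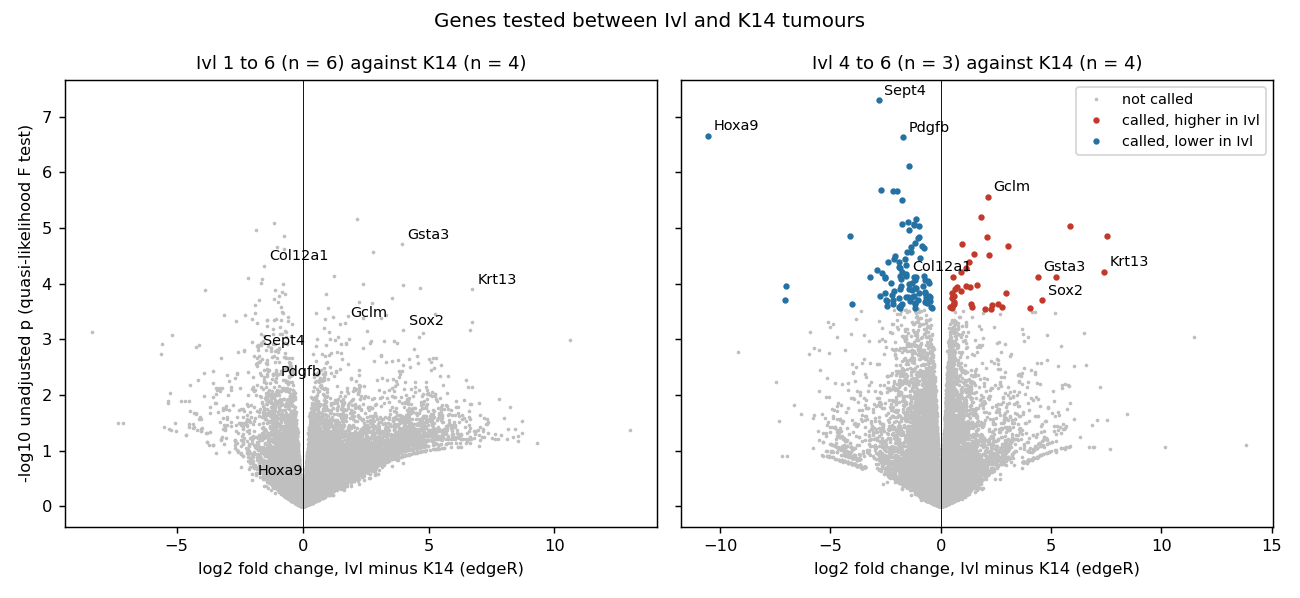
Log2 fold change (Ivl over K14, horizontal axis) against -log10 of the unadjusted p (vertical axis) for each gene tested, over all 6 Ivl tumours on the left and over Ivl tumours 4 to 6 on the right. Each point is a gene. On the left 0 genes pass an adjusted p of 0.05, on the right 140 pass, 40 on the higher and 100 on the lower side.

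Sox2 and the mucosal keratin Krt13 were higher in Ivl tumours 4 to 6, and neither they nor Krt4 overlapped between the origins in any of the 10 tumours. Sox2 (chr3:34650405-34652461, GRCm38) held 28.2, 29.3 and 4.01 CPM in Ivl tumours 4, 5 and 6, 14.1, 2.62 and 2.63 CPM in Ivl tumours 1, 2 and 3, and 0.742, 0.851, 0.924 and 0.849 CPM in the K14 tumours. Every Ivl tumour was above every K14 tumour, and the Ivl tumours split into 3 with 14.1 CPM or more and 3 with 4.01 CPM or less. K14 tumours lay within the range of normal skin, 0.695 to 1.61 CPM. The mean log2 CPM was 3.26 higher in the 6 Ivl tumours (two-sided exact permutation test, p = 0.0095, the smallest p that 210 splits allow). Sox2, Krt13 and Krt4 were chosen because they were already known to differ in these libraries, so this test gives no independent support and the adjusted p over all genes is the one to read. With Ivl tumours 4 to 6 edgeR gave a 24.2-fold higher level (log2 fold change 4.6 ± 0.65, adjusted p = 0.0445), and over all 6 Ivl tumours 4.0 ± 0.85 (adjusted p = 0.28).

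Krt13 (chr11:100117327-100121566) held 2210, 2370 and 252 CPM in Ivl tumours 4 to 6, 924, 232 and 73.3 CPM in Ivl tumours 1 to 3, and 6.22, 9.34, 8.67 and 13.9 CPM in K14 tumours. The lowest Ivl tumour was above the highest K14 tumour. Normal skin held 0.406 to 1.01 CPM, below both groups. The level was 167-fold higher in Ivl tumours 4 to 6 (log2 fold change 7.39 ± 0.86, adjusted p = 0.0315, edgeR), and over all 6 the estimate was 6.73 ± 1.15 (adjusted p = 0.181). Its partner Krt4 held 6.27, 75.0 and 27.1 CPM in Ivl tumours 4 to 6, 16.4, 8.88 and 3.81 CPM in Ivl tumours 1 to 3 and 1.97, 0.468, 0.374 and 0.491 CPM in K14 tumours. The groups did not overlap, and the edgeR test was not passed (log2 fold change 5.43 ± 1.02 with Ivl tumours 4 to 6, adjusted p = 0.0894). Over the 10 tumours the mean log2 CPM differed by 5.83 for Krt13 and 4.36 for Krt4, and Krt4 had an adjusted p of 0.286 in edgeR.

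Of 17 genes of oral and other mucosal epithelia tested with Ivl tumours 4 to 6, Krt13 was the called gene (DESeq2 called 4), 13 had a fold change above 0, and the median was 0.68 beside -0.03 over all genes tested. Of all genes, edgeR called 0.568% and DESeq2 5.79%, and 46.6% were above 0. With all 6 Ivl tumours 12 of 18 were above 0 and the median was 0.68 beside 0.11. Sprr3, a small proline-rich protein of mucosal cornified cells, held 233, 257 and 93.1 CPM in Ivl tumours 4 to 6 and 4.06 to 16.0 CPM in K14 tumours (log2 fold change 4.29, adjusted p = 0.0516, edgeR), while Ivl tumours 2 and 3 held 8.32 and 2.75 CPM and overlapped them. Krt76, a keratin of the palate and gums, held 1.4 to 3.13 CPM against 0.022 to 0.340 CPM (3.72, adjusted p = 0.0759), and its adjusted p was 0.371 over all 6. Other members did not separate the groups, among them Endou (687 to 970 CPM against 618 to 1290 CPM), Ly6d (1710 to 2110 CPM against 1190 to 2360 CPM) and Krt78 (476 to 494 CPM against 212 to 491 CPM). Outside the list, the tight junction gene Cldn17, chosen after its values were seen, held 100, 49.5 and 27.4 CPM against 2.88, 1.47, 0.814 and 1.06 CPM. It was 37.9-fold higher (log2 fold change 5.24 ± 0.62, adjusted p = 0.0316). Ivl tumours 1 to 3 held 44.1, 6.10 and 2.80 CPM of Cldn17, the last below K14 tumour 1, and over all 6 the adjusted p was 0.303.

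**Figure D2:**
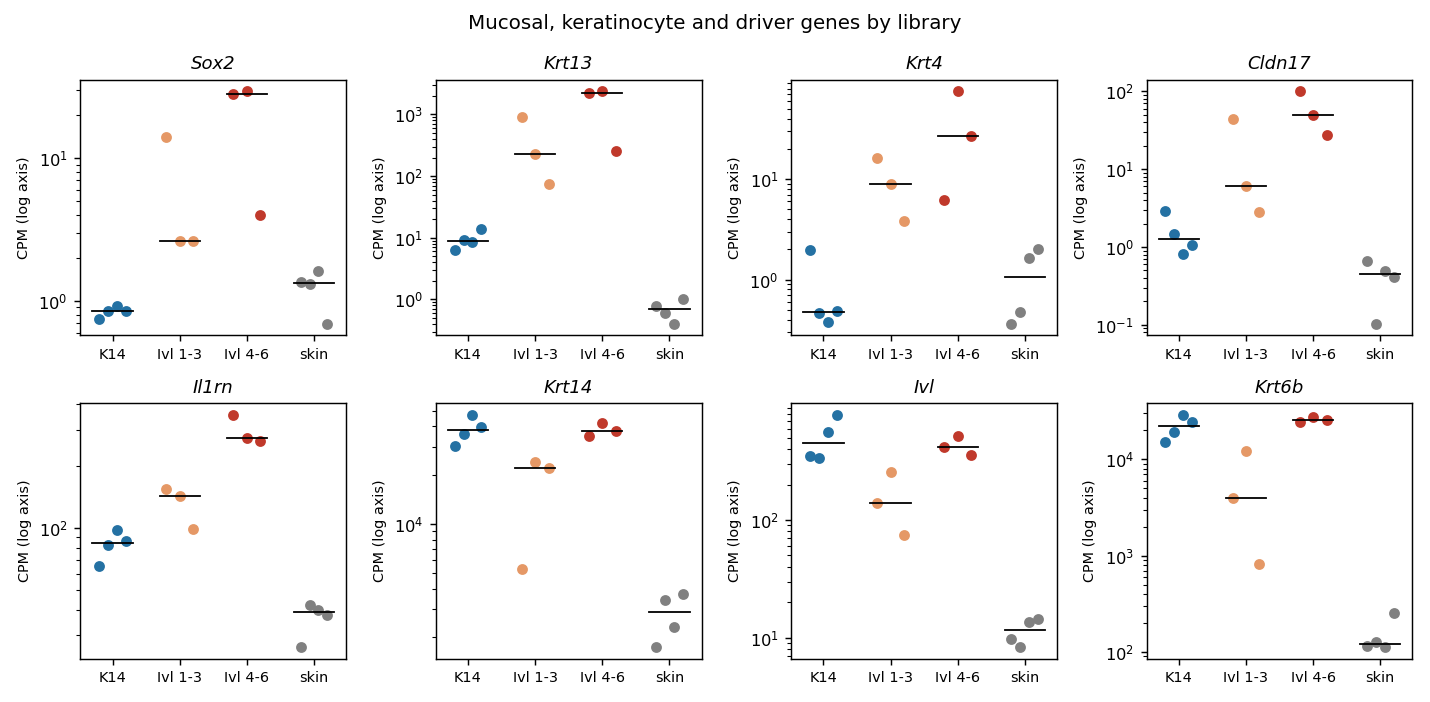
CPM on a log axis for 8 genes (Sox2, Krt13, Krt4, Cldn17, Il1rn, Krt14, Ivl and Krt6b) in K14 tumours, Ivl tumours 1 to 3, Ivl tumours 4 to 6 and normal skin. Each dot is a library and the line is the median of the group. Sox2 lies at 0.742 to 0.924 CPM in K14 tumours and at 2.62 CPM or more in Ivl tumours, while Krt14 and Ivl overlap between K14 tumours and Ivl tumours 4 to 6.

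Il1rn, which encodes the interleukin-1 receptor antagonist, was the called member of 14 wound keratins and alarmins. It held 354, 273 and 264 CPM in Ivl tumours 4 to 6, 154, 143 and 99.0 CPM in Ivl tumours 1 to 3 and 65.6, 82.5, 97.3 and 86.0 CPM in K14 tumours. All 6 Ivl tumours were above the K14 tumours, Ivl tumour 3 only just. The level was 3.57-fold higher in Ivl tumours 4 to 6 (log2 fold change 1.84 ± 0.17, adjusted p = 0.0136, edgeR), and 1.37 ± 0.33 on the log2 scale over all 6 (adjusted p = 0.354). The wound keratins Krt6b and Krt16 overlapped between the groups, at 24200 to 27900 against 15100 to 28900 CPM and at 15300 to 17400 against 10800 to 19500 CPM.

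Glutathione is the main thiol antioxidant of the cell. It is made by glutamate-cysteine ligase, of which Gclc is the catalytic and Gclm the modifier subunit, from cystine that the exchanger Slc7a11 brings in. Many of these genes are targets of the transcription factor NRF2 (gene Nfe2l2), which KEAP1 holds in check and which binds antioxidant response elements with the core TGACNNNGC. A list of 39 such genes was put together after their values were seen and is described by counts.

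The promoters of the 4 called members are shown because all 4 were higher in Ivl tumours 4 to 6. Each line is 100 bases of the RefSeq promoter (GRCm38.p6), from 150 to 51 bases before the transcription start, read 5′ to 3′ on the strand of the gene. Capitals mark TGACNNNGC on either strand.
Gclm: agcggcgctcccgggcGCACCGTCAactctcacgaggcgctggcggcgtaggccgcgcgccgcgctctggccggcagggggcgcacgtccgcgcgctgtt
Gsta3: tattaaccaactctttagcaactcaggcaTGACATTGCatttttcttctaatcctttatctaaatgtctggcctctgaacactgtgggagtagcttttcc
Slc7a11: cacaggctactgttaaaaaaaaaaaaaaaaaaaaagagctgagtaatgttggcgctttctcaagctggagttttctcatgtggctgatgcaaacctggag
Gstm1: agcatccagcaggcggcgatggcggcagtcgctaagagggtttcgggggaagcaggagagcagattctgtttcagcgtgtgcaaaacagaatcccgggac

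They lie at chr3:122245407-122245506 (Gclm, plus strand), chr1:21240435-21240534 (Gsta3, plus strand), chr3:50443664-50443763 (Slc7a11, minus strand) and chr3:108018024-108018123 (Gstm1, minus strand). In Gclm the motif is on the reverse strand and in Gsta3 on the forward strand. In Slc7a11 and Gstm1 these letters do not occur in the 250 bases before the start. The search took both strands and 250 bases before each start, and 3338 of 32851 promoters (10.2%) held the motif. Of the 39 genes 33 had a promoter in the RefSeq table, and 9 of these held it (27.3% of genes). Counted by promoter, as for the 10.2%, it was 9 of 41 (22.0%). A match describes these letters and does not show binding.

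With Ivl tumours 4 to 6, 4 of the 39 genes were called higher and 0 lower, beside 0.162% of all genes called higher. The list's median log2 fold change was 0.38 beside -0.03 over all genes, 33 of 39 were above 0 (46.6% of all genes were), and 18 of 39 were higher with no overlap (8.17% of all genes were). Over all 6 Ivl tumours 0 were called, 10 had an unadjusted p under 0.05 on the higher side and 1 on the lower, DESeq2 called 4, 4 were higher with no overlap, and the median was 0.33 beside 0.11. In Ivl tumours 1 to 3 alone the median was 0.08. Gclm held 209, 151 and 247 CPM in Ivl tumours 4 to 6, 94.1, 69.0 and 101 CPM in Ivl tumours 1 to 3 and 46.5, 40.5, 43.9 and 52.0 CPM in K14 tumours. Each Ivl tumour was above each K14 tumour. It was 4.40-fold higher with Ivl tumours 4 to 6 (log2 fold change 2.14 ± 0.18, adjusted p = 0.00841, edgeR) and stayed called in 6 of 7 fits that left out a library. Over all 6 the estimate was 1.67 ± 0.34 (adjusted p = 0.24). An opposite-strand transcript, Gm17494, overlaps its exons at a mean of 2.26 CPM.

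Gsta3 and Gstm1, whose levels are given above, were 21-fold and 4.79-fold higher in Ivl tumours 4 to 6 (adjusted p = 0.0316 and 0.0499, edgeR). Slc7a11 held 250, 239 and 307 CPM in Ivl tumours 4 to 6, 187, 142 and 90.6 CPM in Ivl tumours 1 to 3 and 70.2, 130, 110 and 105 CPM in K14 tumours. Ivl tumour 3 overlapped the K14 tumours and the others did not, and Slc7a11 held 17.5 to 205 CPM in K5 tumours. It was 2.55-fold higher with Ivl tumours 4 to 6 (log2 fold change 1.35 ± 0.21, adjusted p = 0.0468), and the estimate over all 6 was 0.97 (adjusted p = 0.649). The threshold was missed narrowly by Gclc (log2 fold change 1.16, adjusted p = 0.0649), Gss, which completes glutathione (0.96, 0.0668), and the peroxidase Gpx2 (1.90, 0.053).

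Other members of the list showed no call. Hmox1, the haem-degrading oxygenase, held 116 to 190 CPM in Ivl tumours 4 to 6 and 125 to 467 CPM in K14 tumours (log2 fold change -0.68, adjusted p = 0.547). Txnrd1 and Keap1 stood at -0.06 and -0.10 with adjusted p-values of 0.869 and 0.634. Nqo1 and Nfe2l2 stood at 0.86 and 0.50 (adjusted p = 0.142 and 0.0954), with Nfe2l2 at 346 to 385 CPM against 235 to 280 CPM. Tfrc, the transferrin receptor for iron uptake, chosen after its values were seen, was called at 1.30 ± 0.16 (adjusted p = 0.0253), with 1.1 over all 6 (adjusted p = 0.317). It held 132 to 153 CPM in Ivl tumours 4 to 6, 43.6 to 67.3 CPM in K14 tumours and 69.3 to 138 CPM in K5 tumours. Ivl tumour 3, at 66.7 CPM, lay in the K14 range.

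**Figure D3:**
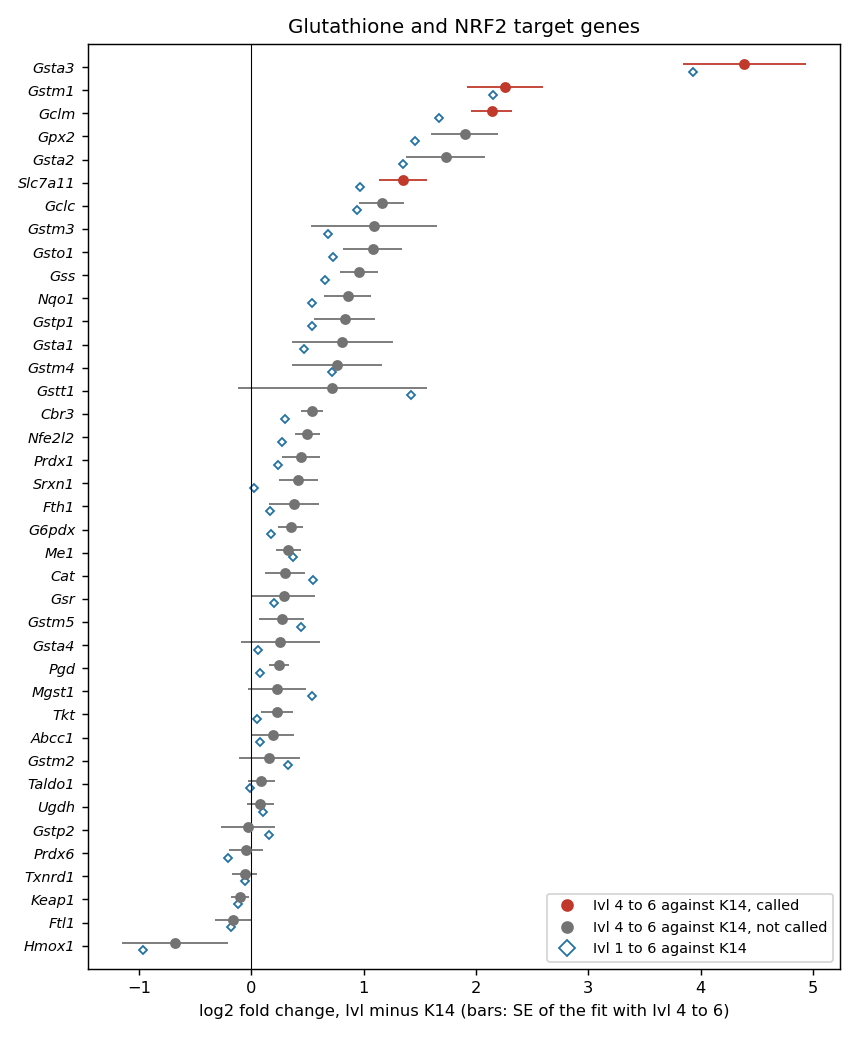
Log2 fold change (Ivl tumours 4 to 6 over K14 tumours) for the 39 glutathione and NRF2 target genes, ordered by size. Circles are estimates with bars of ± 1 SE, red for the 4 called genes and grey for the others, and blue diamonds are the estimates over all 6 Ivl tumours. Of the 39 circles 33 lie right of 0, with Gsta3 at 4.39 and Hmox1 at -0.68.

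Genes of the extracellular matrix were frequent among the lower calls. Collagens are secreted as trimers after proline hydroxylation and chaperoning in the endoplasmic reticulum, and are then trimmed and cross-linked outside the cell. Laminins, nidogens and perlecan (Hspg2) build the basement membrane under epithelium and vessels. In bulk tissue, fewer cells of a type and less RNA per cell cannot be told apart. Pooled were the lists for fibroblasts, activated stroma, metalloproteinases, collagens, collagen processing, basement membrane, PDGF signalling, endothelium, and pericytes and smooth muscle. Of their 160 genes tested, 29 (18.1%) were called lower in Ivl tumours 4 to 6 and 0 higher, beside 0.406% of all genes called lower. They made up 29.0% of the 100 lower calls. The lists of collagens, collagen processing, basement membrane and PDGF signalling were written after the values were seen, so the pooled share gives no independent support. In the other lists, which share some genes with these, the lower calls were 7 of 19 for fibroblasts and 5 of 20 for activated stroma. They were 1 of 12 for metalloproteinases, 1 of 16 for endothelium and 0 of 11 for pericytes and smooth muscle.

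Among the fibrillar collagens, Col1a1 held 328, 417 and 353 CPM in Ivl tumours 4 to 6, 458, 1090 and 2950 CPM in Ivl tumours 1 to 3 and 3610, 3260, 1150 and 1970 CPM in K14 tumours. Ivl tumours 4 to 6 were apart from the K14 tumours, whereas Ivl tumour 3 lay inside their range. The level was 6.84-fold lower (log2 fold change -2.78 ± 0.41, adjusted p = 0.043, edgeR), and over all 6 the estimate was -1.42 ± 0.65 (adjusted p = 0.714). Of 41 collagen genes tested, 8 were called lower and 0 higher (Col1a1, Col1a2, Col5a1, Col5a2, Col6a2, Col6a3, Col7a1 and Col12a1), and the median was -0.77. Col3a1 was not called (407, 515 and 1050 CPM against 890 to 3690 CPM, adjusted p = 0.188).

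Col7a1, the anchoring fibril collagen that keratinocytes make, and Col12a1 kept their separation with all Ivl tumours. Col7a1 held 350, 419 and 329 CPM in Ivl tumours 4 to 6, 94.7, 370 and 482 CPM in Ivl tumours 1 to 3 and 862, 979, 1040 and 1020 CPM in K14 tumours. Its log2 fold change was -1.42 ± 0.14 with Ivl tumours 4 to 6 (adjusted p = 0.0147) and -1.52 ± 0.34 over all 6 (adjusted p = 0.302). Col12a1 held 344, 335 and 242 CPM, then 196, 286 and 476 CPM, against 910, 999, 675 and 1020 CPM. Its log2 fold change was -1.56 ± 0.20 (adjusted p = 0.0316) and -1.52 ± 0.24 (adjusted p = 0.144). The highest values of normal skin were 98.1 CPM for Col7a1 and 127 CPM for Col12a1. All K14 tumours exceeded them, and so did the Ivl tumours, except Ivl tumour 1 for Col7a1 (94.7 CPM).

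The machinery that folds and trims collagen was called lower in 6 of 30 genes, beside 0.406% of all genes. Bmp1, the protease that removes the collagen C-propeptide, held 104, 109 and 85.7 CPM in Ivl tumours 4 to 6, 105, 119 and 142 CPM in Ivl tumours 1 to 3 and 233, 250, 201 and 212 CPM in K14 tumours. No Ivl tumour reached the K14 range, and the level was 2.25-fold lower with Ivl tumours 4 to 6 (log2 fold change -1.17 ± 0.13, adjusted p = 0.0191). The collagen chaperones Serpinh1 and Fkbp10 had -1.55 and -1.22 (adjusted p = 0.0316 and 0.0136), the prolyl hydroxylase P3h1 -1.77 (0.0315), the zinc transporter Slc39a13 -1.12 (0.0316) and the transcription factor Creb3l1 -1.34 (0.0215). With all 6 Ivl tumours Fkbp10 stayed apart (adjusted p = 0.234, edgeR). Serpinh1, P3h1, Slc39a13 and Creb3l1 then overlapped the K14 tumours (adjusted p = 0.649, 0.491, 0.686 and 0.714). Fkbp10 and Slc39a13 share exon sequence with opposite-strand genes. General folding enzymes of the same list were not different by test, with P4hb at 0.02 and Ppib at 0.04 on the log2 scale (adjusted p = 0.979 and 0.911).

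In the basement membrane list 8 of 26 genes were called lower, beside 0.406% of all genes, and 25 had a fold change below 0. Pxdn, which cross-links collagen IV, held 19.8, 26.1 and 21.7 CPM in Ivl tumours 4 to 6 and 84.2, 84.8, 64.1 and 66.2 CPM in K14 tumours, with Ivl tumours 1 to 3 at 16.7, 85.7 and 122 CPM. Ivl tumours 2 and 3 were as high as the K14 tumours, and the change was called with Ivl tumours 4 to 6 (log2 fold change -1.74 ± 0.15, adjusted p = 0.00855) and not over all 6 (-0.62 ± 0.56, adjusted p = 0.827). Nid1, Nid2 and Hspg2 were likewise called with Ivl tumours 4 to 6 and overlapped with all 6, with -1.34, -2.51 and -1.11 on the log2 scale (adjusted p = 0.0191, 0.0407 and 0.0136). Nid2 shares exon sequence with Rtraf on the opposite strand, at a mean of 78.8 CPM. Fbln2, a fibulin, stayed apart over all 10 tumours, at 87.9 to 225 CPM against 248 to 342 CPM (-1.51 with Ivl tumours 4 to 6, adjusted p = 0.0136). The membrane-bound collagenase Mmp14 was the called member among 12 genes for metalloproteinases and Timp1, at 117 to 188 CPM over the 6 Ivl tumours and 213 to 247 CPM in K14 tumours (-0.74 ± 0.10, adjusted p = 0.0316).

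**Figure D4:**
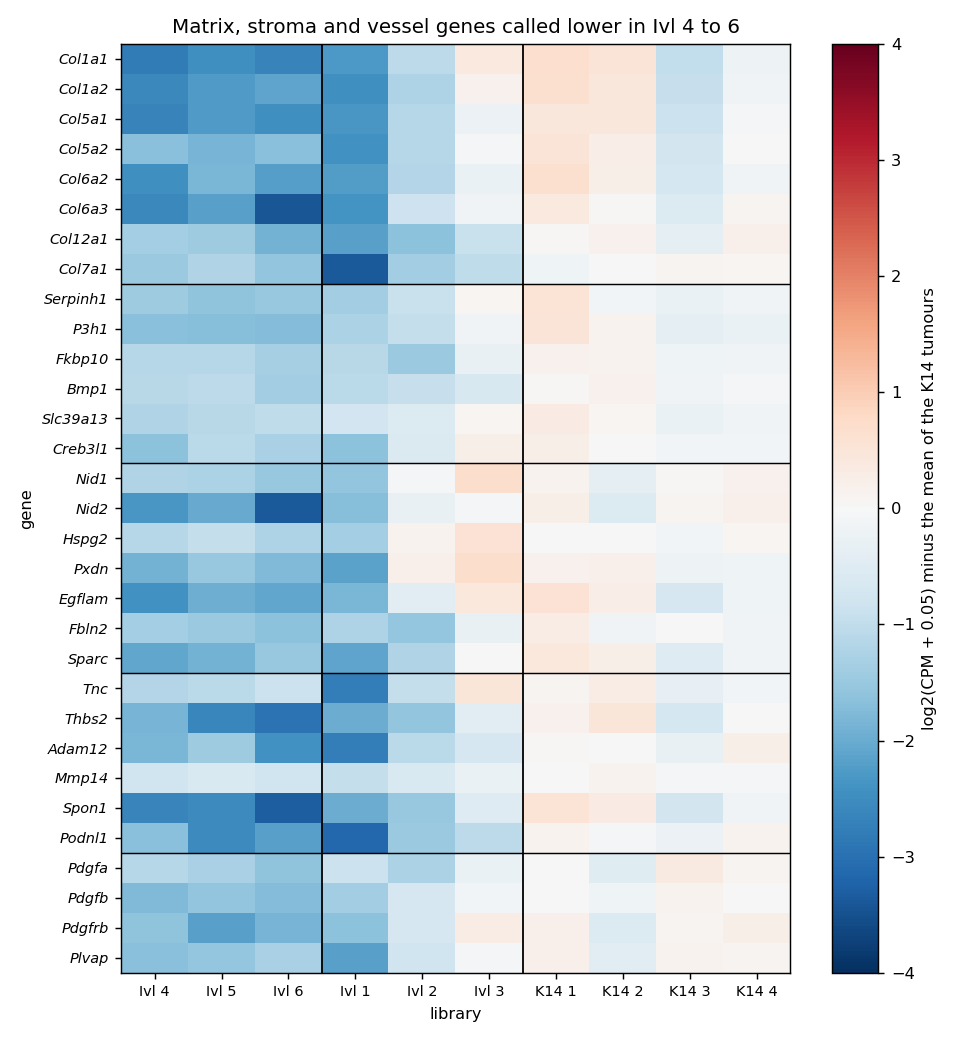
Heat map of log2(CPM + 0.05) minus the mean of the K14 tumours for the 29 called genes of the matrix, stroma, vessel and PDGF lists, and for Adam12 and Spon1, which were added after their values were seen, with 1 column per tumour and a colour scale from -4 to 4. Ivl tumours 4 to 6 are below the K14 mean throughout, while Ivl tumour 3 is near it for many genes (Col1a1 at 2950 CPM).

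PDGF ligands are growth factors for mesenchymal cells, which carry the receptors. Pdgfb held 9.50, 10.8 and 9.83 CPM in Ivl tumours 4 to 6, 12.3, 20.6 and 30.0 CPM in Ivl tumours 1 to 3 and 33.2, 29.3, 36.2 and 32.3 CPM in K14 tumours. Ivl tumour 3 touched the lower K14 values and the other Ivl tumours lay below them. The level was 3.28-fold lower with Ivl tumours 4 to 6 (log2 fold change -1.71 ± 0.10, adjusted p = 0.00192, edgeR) and was called in all 7 fits that left out a library, while the estimate over all 6 was -1.08 ± 0.32 (adjusted p = 0.54). Pdgfa and the receptor Pdgfrb were also called (-1.38 and -1.90, adjusted p = 0.0457 and 0.0292), and Pdgfra was not (-1.26, adjusted p = 0.296). With all 6 Ivl tumours, Pdgfa and Pdgfrb overlapped the K14 tumours (adjusted p = 0.351 and 0.714, edgeR). Ivl tumour 3 held 77.3 CPM of Pdgfrb, above the 42.9 to 74.8 CPM of the K14 tumours. Pdgfa shares exon sequence with an opposite-strand gene.

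Markers of mesenchymal and vessel cells moved with these genes. The summed CPM of 19 fibroblast markers was 2184 to 3488 in Ivl tumours 4 to 6, 2288 to 13380 in Ivl tumours 1 to 3 and 5517 to 15960 in K14 tumours, and none of the 19 was at 0 in all 7 tumours. The list's median was -1.26, and 7 of 19 were called lower. The median over all 6 was -0.60. Single markers differed in direction. Dcn (39.1 to 292 CPM against 37.6 to 190 CPM) and Lum (69.8 to 100 CPM against 21 to 147 CPM) overlapped, with log2 fold changes of 0.65 and 0.05 (adjusted p = 0.796 and 0.984). For 16 endothelial markers the sum was 219.7 to 350.0 CPM in Ivl tumours 4 to 6, 166.2, 397.7 and 690.5 CPM in Ivl tumours 1 to 3 and 378.6 to 698.0 CPM in K14 tumours, so that Ivl tumours 2 and 3 lay in the K14 range. The median with Ivl tumours 4 to 6 was -1.0, and Plvap, a protein of vessel fenestrae, was called (26.4, 28.7 and 34.4 CPM against 97.7, 62.6, 92.6 and 91.0 CPM, adjusted p = 0.0215). Ivl tumour 3 held 81.9 CPM of Plvap, above K14 tumour 2, and over all 6 the adjusted p was 0.646. Kdr and Pecam1 missed the threshold (adjusted p = 0.0506 and 0.199). The part of cell composition in the matrix result was not tested.

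HOX genes are transcription factors whose expression in skin keeps a record of position along the body, with high-numbered members in the trunk and limbs. Of 18 trunk and proximal HOX genes tested with Ivl tumours 4 to 6, 18 had a fold change below 0, 15 did not overlap (7.95% of all genes were lower without overlap), 2 were called, and the median was -2.80. Over all 6 Ivl tumours the median was -0.79, 0 were called by edgeR or DESeq2, and 3 had an unadjusted p under 0.05. Hoxa9 held 0.0179, 0.0214 and 0 CPM in Ivl tumours 4, 5 and 6, 33.3, 0 and 0 CPM in Ivl tumours 1, 2 and 3 and 24.9, 32.3, 13.4 and 19.2 CPM in K14 tumours. Ivl tumour 1 was thus above the K14 tumours, and the other 5 Ivl tumours held next to none. Ivl tumours 4 to 6 together had 2 counts and K14 tumours 4489, a ratio of 1810 after scaling for library size (95% counting interval 500 to 14900, adjusted p = 0.00192, edgeR). K5 tumours 2 to 5 likewise held next to none (0.0197 to 0.0231 CPM), and K5 tumour 1 held 6.5 CPM. Ivl tumour 1 and K5 tumour 1 belong to the set of 4 libraries whose average lay close to that of the other 15. The part of the batch adjustment in their HOX values was not tested. Normal skin held 0.132 to 0.906 CPM.

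The same tumour stood out in other members. Hoxa10 held 3.99 CPM in Ivl tumour 1, 0 in Ivl tumours 2 to 6 and 3.54, 1.11, 0.462 and 0.566 CPM in K14 tumours, at least 78.9-fold higher in K14 tumours than in Ivl tumours 4 to 6 (adjusted p = 0.0964, against 3 counts over the group). Hoxb8, the other called member, had 5 counts in Ivl tumours 4 to 6 and 915 in K14 tumours (ratio 147, interval 62.9 to 455, adjusted p = 0.0445). The distal gene Hoxc11 had 0 counts in Ivl tumours 4 to 6 and 61 in K14 tumours, at least 16.4-fold higher there by the same floor (adjusted p = 0.0369). Hoxc8 reached 41.1 CPM in Ivl tumour 1, within the 16.6 to 41.8 CPM of normal skin, and 3.17 CPM or less in every other tumour compared. Hoxa7 was shared more widely, at 23.1 CPM in Ivl tumour 4, 43.0 CPM in Ivl tumour 1 and 35.6 to 43.4 CPM in K14 tumours.

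Summed over the list, Ivl tumours 1 to 6 held 208, 12.4, 19.4, 52.9, 16.8 and 7.81 CPM and K14 tumours 157, 125, 92.0 and 103 CPM. K5 tumours 1 to 5 held 261, 14.8, 20.0, 31.2 and 22.9 CPM, and normal skin 116 to 153 CPM. K5 tumours 2 to 5 thus lay within the range of Ivl tumours 2 to 6. Of 20 craniofacial genes tested with Ivl tumours 4 to 6, 0 were called by edgeR and 1 by DESeq2 (5.79% of all genes), and the median was 0.70. At an unadjusted p under 0.05, 6 were higher, beside 7.29% of all genes. Pitx1, a factor of hindlimb and mouth, held 267, 233 and 93.2 CPM in Ivl tumours 4 to 6 and 46.6 to 72.1 CPM in K14 tumours (log2 fold change 1.77, adjusted p = 0.0905), with 205, 25.0 and 37.6 CPM in Ivl tumours 1 to 3 and an adjusted p of 0.714 over all 6. The part of body site in these values was not tested, since no label gives it.

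**Figure D5:**
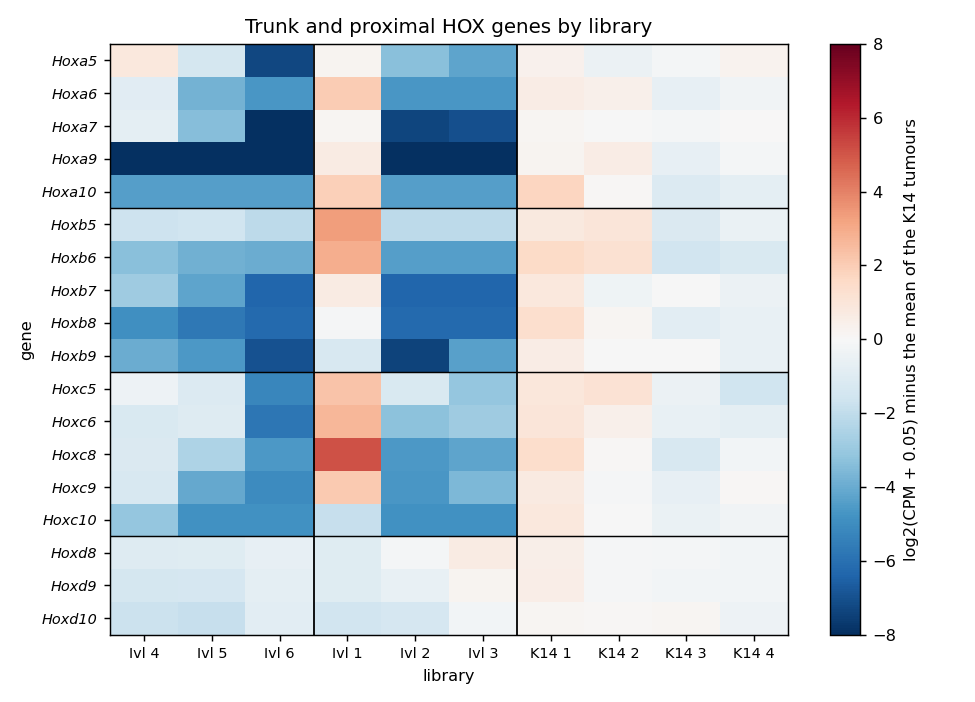
Heat map of log2(CPM + 0.05) minus the K14 mean for the 18 trunk and proximal HOX genes, with 1 column per tumour and a colour scale from -8 to 8, beyond which values take the end colour. Ivl tumour 1 resembles the K14 tumours in level (208 CPM summed against 92.0 to 157 CPM), and Ivl tumours 2 to 6 are lower (7.81 to 52.9 CPM).

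Several gene lists gave no call in edgeR between the origins, and their values are those with Ivl tumours 4 to 6 unless said otherwise. Of 20 MAPK output genes 0 were called by edgeR or DESeq2 in either comparison and 0 had an unadjusted p under 0.05, with a median of -0.02. Dusp6, a feedback phosphatase of the pathway, held 84.0, 114 and 58.3 CPM in Ivl tumours 4 to 6 and 129, 40.6, 67.8 and 110 CPM in K14 tumours. In the MYC and ribosome biogenesis list 17 of 18 genes were above 0 and 0 were called by edgeR (7 at an unadjusted p under 0.05, and 2 by DESeq2), with a median of 0.25 and Myc itself at 0.09 (adjusted p = 0.856). Of 20 glycolysis and hypoxia genes 19 were below 0 and 0 were called by edgeR (4 at an unadjusted p under 0.05, and 2 by DESeq2), with a median of -0.52. Of 18 interferon response genes 17 were below 0, 8 had an unadjusted p under 0.05, and edgeR called 0 and DESeq2 6. Of all genes, 7.29% were higher and 7.44% lower at an unadjusted p under 0.05, and DESeq2 called 2.79% higher and 3% lower. The medians of the MYC, glycolysis and interferon lists over all 6 Ivl tumours were 0.09, -0.55 and -0.22, with 0, 9 and 3 genes at an unadjusted p under 0.05 and 0, 1 and 0 called by DESeq2. There 4.06% of all genes were higher and 2.65% lower at an unadjusted p under 0.05, and DESeq2 called 0.847%. Trp63, the master factor of stratified epithelium, stood at -0.14 (adjusted p = 0.771), and the 14 basal keratinocyte markers had 0 calls in edgeR and DESeq2, 0 at an unadjusted p under 0.05, and a median of -0.25, while over all 6 the median was -0.46, 5 were lower at an unadjusted p under 0.05, and DESeq2 called 1 and edgeR 0.

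Proliferation genes overlapped in the main. Of 18 tested, 14 were above 0, the median was 0.10, and Mki67 held 324, 370 and 338 CPM in Ivl tumours 4 to 6 and 262, 255, 302 and 362 CPM in K14 tumours (log2 fold change 0.21, adjusted p = 0.555). Birc5, which encodes survivin, was the called member and was lower. It held 20.0, 23.0 and 18.1 CPM in Ivl tumours 4 to 6, 17.8, 14.1 and 20.0 CPM in Ivl tumours 1 to 3 and 34.2, 31.4, 31.3 and 34.2 CPM in K14 tumours. The groups did not overlap, with log2 fold changes of -0.69 ± 0.10 with Ivl tumours 4 to 6 (adjusted p = 0.0411) and -0.80 ± 0.14 over all 6 (adjusted p = 0.179). Its neighbours on chromosome 11 moved with it and are given among the other observations.

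The smallest adjusted p of the comparison with Ivl tumours 4 to 6 belonged to Sept4, a septin, chosen after its values were seen. It held 2.22, 1.78 and 1.98 CPM in Ivl tumours 4 to 6, 3.69, 5.48 and 9.14 CPM in Ivl tumours 1 to 3 and 14.0, 13.2, 14.7 and 14.3 CPM in K14 tumours. All 6 Ivl tumours were below the K14 tumours, and the level was 7.06-fold lower with Ivl tumours 4 to 6 (log2 fold change -2.82 ± 0.14, adjusted p = 0.00124, edgeR), against -1.79 ± 0.43 over all 6 (adjusted p = 0.343). Crabp1, a retinoic acid binding protein from the dermal papilla list, held 44.9, 36.3 and 39.2 CPM, then 11.6, 35.5 and 82.5 CPM, against 117, 105, 106 and 111 CPM (-1.46 ± 0.10, adjusted p = 0.00467). Its groups were apart over all 10 tumours.

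Genes of other tissues varied widely between single tumours. The 15 skeletal muscle markers summed to 11.6, 7404, 2855, 14.7, 14.4 and 718 CPM in Ivl tumours 1 to 6 and to 775, 35.5, 13.5 and 11.4 CPM in K14 tumours. Normal skin held 3758 to 14650 CPM. Ivl tumours 1 to 3 belong to the set of 4 libraries whose average lay close to that of the other 15. The part of the batch adjustment in these values was not tested. The list's median was 2.51 over all 6 Ivl tumours and 0.23 with Ivl tumours 4 to 6. Adipocyte genes had medians of 1.92 and -0.43, sebaceous gland genes 0.98 and -0.24 and hair genes 0.85 and -0.02. Of the skeletal muscle, adipocyte and sebaceous gland genes 0 were called and 0 had an unadjusted p under 0.05 in either comparison (edgeR), DESeq2 also called 0, and their part in other results was not tested.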

How the data were processed

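RNA of 19 mouse libraries was sequenced with a poly(A), strand-specific kit. The deposited table holds estimated counts that the authors made per the labels and the study's methods: reads were checked with FastQC 0.11.8, trimmed with Trim Galore, aligned to GRCm38 with HISAT2 2.1.0 and counted with featureCounts of Subread 1.6.3, and the counts were then adjusted for a sequencing batch with ComBat-seq, which gave whole numbers. Whether counting used strand is not given in the sources used here. A batch adjustment moves the level of every library in its batch, so differences between adjusted libraries carry its error.

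Of 34807 genes 34694 were matched to GENCODE mouse release 21. Genes that reached 5 counts in 1 library or more of a comparison were tested with edgeR 4.0.16 (TMM scaling, quasi-likelihood test, Benjamini-Hochberg adjustment over all genes tested) in R 4.3.3. DESeq2 1.42.0 was run as an alternative, and the edgeR procedure was tested on simulated data. The 3 genes Sox2, Krt13 and Krt4 were also compared by exact permutation over libraries (scipy 1.17.1). Fold changes and SEs are on the log2 scale. Counting intervals are at 95% and cover counting error only. Among 21 pairs of replicates, none was alike within sampling noise. Same-numbered Ivl and K14 libraries did not deviate together (correlations -0.5, -0.04, -0.43 and 0.35), so numbers were not treated as pairs.

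The named genes were those of the study's main interest and the Cre drivers, each member of a gene list that passed the test, up to 4 of the most abundant other members of a list, and the 5 genes with the smallest unadjusted p in each direction where no gene passed. Members of lists that did not pass and fall outside this rule, and any other gene so marked, were chosen after their values were seen. The comparison, the 44 gene lists and the check with Ivl tumours 4 to 6 were chosen with earlier results of these data known, and 5 lists were added later. Alternatives were other scalings, filters, sets of libraries, DESeq2, a replicate block and leaving out each library.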

Additional observations from a re-analysis of the deposited data

Results flagged for a closer look

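In 190 groups of values (95 genes in Ivl and in K14 tumours), 15 held a library that lay far from the others by Dixon's criterion, which marks about 5% of groups by chance. Ivl tumour 1, a library of the set of 4 that stood apart, was the library in 7 of them, and the part of the batch adjustment was not tested. Its Krt14 was 5290 CPM against 22000 to 41800 CPM in the other Ivl tumours, its Krt5 2630 CPM against 6110 to 9530 CPM and its Col7a1 94.7 CPM against 329 to 482 CPM. It also held 33.3 CPM of Hoxa9, 3.42 CPM of Hoxb8, 3.99 CPM of Hoxa10 and 0.0721 CPM of Hoxc11, where the other 5 Ivl tumours reached at most 0.0214, 0.0717, 0 and 0.0151 CPM.

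Ivl tumour 3 was above the other Ivl tumours for Fkbp10 (33.2 CPM against at most 19 CPM), Fbln2 (225 CPM against at most 117 CPM) and Tnrc6c (59.9 CPM against at most 26.5 CPM). K14 tumour 2 was below the other K14 tumours for Nid2 (23.4 CPM against 36.8 CPM or more), Plvap (62.6 CPM against 91.0 CPM or more) and Pecam1 (51.7 CPM against 107 CPM or more). K14 tumour 1 was above the others for Krt4 (1.97 CPM against at most 0.491 CPM) and Hoxd8 (10.5 CPM against at most 6.83 CPM).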

How the results depend on the processing

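Over all 6 Ivl tumours the count of 0 called genes stayed at 0 with RLE size factors, with another filter or none, with all 19 libraries in the fit, with Ivl tumours 1 to 3 alone and with the replicate number as a replicate block (8 libraries, 0 genes called with and without it). DESeq2 gave 231 (111 higher, 120 lower), the 15 libraries outside the set of 4 gave 74 (33 higher, 41 lower), the set of 4 as a covariate gave 57 (27 higher, 30 lower) and Ivl tumours 4 to 6 alone gave 140 (40 higher, 100 lower). Leaving out 1 library gave 0 to 5 (0 higher, 0 to 5 lower), with 1 without Ivl tumour 1 and 5 without Ivl tumour 3. With Ivl tumours 4 to 6, DESeq2 gave 1425 (686 higher, 739 lower), and leaving out 1 library gave 4 to 83 (0 to 33 higher, 4 to 55 lower). The count was 4 without Ivl tumour 4, 5 without Ivl tumour 5, 83 without Ivl tumour 6, and 54, 73, 63 and 10 without K14 tumours 1, 2, 3 and 4. The cause of these differences was not tested. No paired analysis was possible because Ivl tumours 4 to 6 and the K14 tumours share 1 replicate number.

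With Ivl tumours 4 to 6 alone the permutation differences were 4.10 for Sox2, 6.90 for Krt13 and 5.11 for Krt4 at p = 0.057, the smallest p that 35 splits allow in this exact test, so it could not have passed the threshold. Gm42819 had a log2 fold change of 2.06 over all 6 Ivl tumours and -4.12 both with Ivl tumours 4 to 6 alone and in the fit of 15 libraries. RLE size factors ended the call of 6 named genes with Ivl tumours 4 to 6. Precision was limited by 3 libraries in that group and by the spread of Ivl tumours 1 to 3, whose batch is not given in the labels.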

Other observations

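Birc5 and Tk1 (thymidine kinase 1), both genes of dividing cells, lie within 370 kb of chromosome 11 (chr11:117654289-118024011, GRCm38), together with Tnrc6c, Tmc6, Syngr2, Socs3 and Pgs1. These genes were chosen after their values were seen. With Ivl tumours 4 to 6, 6 of the 7 were called lower (edgeR): Tnrc6c (-0.57, adjusted p = 0.0341), Tmc6 (-1.19, 0.0497), Syngr2 (-0.83, 0.0191), Tk1 (-0.77, 0.0191), Birc5 (-0.69, 0.0411) and Pgs1 (-1.20, 0.0136), while Socs3 was not (-0.42, 0.795). Over all 6 Ivl tumours 5 of the 7 did not overlap with K14 tumours. Syngr2, a vesicle protein, held 67.2, 59.7, 63.6, 59.9, 59.6 and 53.4 CPM in Ivl tumours 1 to 6, 109, 107, 92.5 and 98.9 CPM in K14 tumours and 88.9 to 130 CPM in K5 tumours, with 33.1 to 55.9 CPM in normal skin. Pgs1, an enzyme of cardiolipin synthesis, held 25.8 to 52.2 CPM in Ivl tumours, 67.9 to 75.4 CPM in K14 tumours and 65.9 to 87.3 CPM in K5 tumours, with 28.6 to 39.7 CPM in normal skin. In both genes the ranges of Ivl tumours and skin overlapped, and the K14 and K5 tumours lay above both.

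In a scan of 13328 genes by position, in runs of 8 consecutive genes, 5 genes of a run were lower without overlap in 3 of 13175 runs, each of them at this place. Elsewhere a run held at most 3, and 1.42% of all genes scanned were lower without overlap. The nearest genes of the scan on either side were not called, with Sec14l1 at -0.01 and Sept9 at -0.26 on one side (adjusted p = 0.968 and 0.449) and Dnah17 at -1.09, Cyth1 at 0.48 and Usp36 at 0.22 on the other (adjusted p = 0.143, 0.115 and 0.486). Runs share genes, and neighbouring genes are not independent. Exons of Pgs1 overlap those of Dnah17 on the opposite strand. Exons of Tmc6 and Tk1 overlap those of the opposite-strand genes Tmc8 and Afmid, which had means of 1.31 and 0.817 CPM and were not in the scan. The cause was not tested.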
